A study of Arabidopsis thaliana with 24 samples.

Results

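Leaves of hy5-2, an Arabidopsis thaliana line that is null for the transcription factor gene HY5 per the study's design text, were compared with leaves of wild-type Col-0 after both had spent 3.5 h in high light (HL). The comparison used 8 of the 24 RNA-seq libraries of the study, chosen by their labels, with 4 libraries in each group and each library from a different plant. The first group was hy5-2 in HL, the second Col-0 in HL, the third hy5-2 in low light (LL) and the fourth Col-0 in LL. The HL plants received white diode light of about 1100 µmol m-2 s-1 (within 100) in their own growth chamber, and the LL plants stayed at their growth light of 150 µmol m-2 s-1. All plants were 35 days past germination and grew in short days, and 4 fully expanded leaves were taken from each plant. The design text places hy5-2 in the Col-0 genotype, and it stands for 1 mutant allele, with no second allele or complemented line among the samples analysed here. The remaining libraries, from an over-expressor of BBX32, entered none of the group means compared here. They entered the filter on low values, the estimate of the spread between replicates and the rescaling of libraries. The deposited values were FPKM, mapped fragments scaled by transcript length and library depth, and leaves are mixtures of cells, so fewer cells of a type and less RNA per cell cannot be told apart.

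HY5 encodes a bZIP protein that binds DNA elements with an ACGT core. In darkness it is marked for degradation by the E3 ligase COP1, and in light it accumulates and activates genes of flavonoid synthesis, photoprotection and seedling greening. HYH is its closest relative, and B-box proteins act as its partners or antagonists. The comparison read here asked which transcripts differ without HY5 in the first hours of HL, the period before the slower adjustment of photosynthesis.

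Promoter stretches are shown first for 5 genes whose transcripts were lower in hy5-2 in HL. They cover the 250 bases before the annotated start, read 5′ to 3′ on the gene's own strand from the TAIR10.1 assembly, with each ACGT core in capitals. ELIP1 (chr3:8085670-8085919, minus strand) and ELIP2 (chr4:8417992-8418241, plus strand) encode early light-induced proteins. CHS (chr5:4488226-4488475, plus strand) encodes chalcone synthase, CHIL (chr5:1563036-1563285, plus strand) a chalcone isomerase-like protein and DFR (chr5:17166033-17166282, minus strand) dihydroflavonol reductase. They were chosen because they carried some of the largest differences and differ from each other in the ACGT cores they hold. F3'H, LDOX, TT19 and LPR1, described below, fell further than CHS and CHIL, hold no ACGT core in this window and are not shown. The windows shown therefore do not stand for the called genes.
ELIP1: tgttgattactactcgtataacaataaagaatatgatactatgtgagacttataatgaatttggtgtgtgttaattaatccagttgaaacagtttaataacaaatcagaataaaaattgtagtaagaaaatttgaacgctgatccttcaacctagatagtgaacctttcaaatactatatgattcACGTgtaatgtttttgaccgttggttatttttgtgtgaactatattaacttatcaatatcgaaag
ELIP2: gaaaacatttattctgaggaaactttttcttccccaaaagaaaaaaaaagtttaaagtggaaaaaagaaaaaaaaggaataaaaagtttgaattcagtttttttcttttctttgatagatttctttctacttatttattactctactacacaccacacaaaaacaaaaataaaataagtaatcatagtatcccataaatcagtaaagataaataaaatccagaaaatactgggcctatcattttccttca
CHS: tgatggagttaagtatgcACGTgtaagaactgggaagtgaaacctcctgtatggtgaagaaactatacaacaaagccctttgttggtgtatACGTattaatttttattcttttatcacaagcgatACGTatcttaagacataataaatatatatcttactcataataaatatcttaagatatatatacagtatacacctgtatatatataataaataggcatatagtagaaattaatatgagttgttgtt
CHIL: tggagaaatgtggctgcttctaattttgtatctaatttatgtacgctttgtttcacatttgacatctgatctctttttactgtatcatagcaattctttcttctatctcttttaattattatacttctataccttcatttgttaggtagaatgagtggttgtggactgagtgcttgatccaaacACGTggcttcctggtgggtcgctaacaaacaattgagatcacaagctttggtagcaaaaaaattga
DFR: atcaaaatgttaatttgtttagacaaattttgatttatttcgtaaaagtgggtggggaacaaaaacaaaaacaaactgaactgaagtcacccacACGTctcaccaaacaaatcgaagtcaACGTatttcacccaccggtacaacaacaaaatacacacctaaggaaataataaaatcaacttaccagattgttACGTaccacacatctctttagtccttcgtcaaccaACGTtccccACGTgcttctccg

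In these windows ELIP1 held 1 ACGT core, as the palindrome CACGTG, whose A lay 65 bases before the start. ELIP2 held none. CHS held 3 cores, CACGTG at 232 bases and TACGTA at 159 and 125 bases. CHIL held CACGTG at 66 bases. DFR held 5 cores, which lay 156, 130, 57, 22 and 13 bases before the start and of which the nearest was CACGTG.

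HY5 itself (AT5G11260, chromosome 5, 3593335 to 3595073, 4 exons) was read first as a check of the labels. It stood at 0.371, 0.929, 0.196 and 0.499 FPKM in the hy5-2 HL libraries, against 17.5, 19.9, 24.4 and 23.8 FPKM in the Col-0 HL libraries. The groups did not overlap, and 8 to 38 fragments per hy5-2 library stood against 712 to 990 per Col-0 library. The change was −3.91 on the log2(FPKM + 1) scale (SE 0.15, limma adjusted p 1.49e-13). Depth, recovered from the steps between low FPKM values, was 37248318 to 49341933 fragments in hy5-2 HL and 36054202 to 40710139 in Col-0 HL. The 6 mesophyll markers that define leaf tissue were all tested, and their summed FPKM was 44974 to 53833 in hy5-2 HL and 38487 to 45017 in Col-0 HL.

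Across the leaf transcriptome, loss of HY5 in HL went with lower transcripts far more often than with higher ones. Of 17788 genes tested, 428 (2.41%) were called at a limma adjusted p under 0.05, 366 lower (2.06%) and 62 higher (0.349%) in hy5-2. The 366 falls had a median log2 change of −0.55 and reached −5.88, and the 62 rises had a median of 0.47 and reached 1.08. Of the 428, 410 (2.3% of tested genes) had groups that did not overlap, and every hy5-2 library lay below every Col-0 library in 1836 tested genes (10.3%), called or not. At 2-fold or more on that scale stood 58 genes (0.326%), 57 falls (0.32%) and 1 rise (0.00562%). The rise was THI2.2, a thionin gene, at 7.95 to 18.3 FPKM in hy5-2 HL against 3.34 to 11.0 FPKM in Col-0 HL, with overlapping libraries. The median change over all tested genes was −0.083, and when each library was rescaled to a common median ratio this became 0.0013 and the split became 94 higher (0.528%) and 164 lower (0.922%). All 164 of those falls, and 55 of the rises, were also called without rescaling.

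The libraries of each group were not alike. On the first principal component of the 8 HL libraries, which held 37.2% of the variance, library 1 of hy5-2 stood at −18.5, against 17.2, 17.5 and 25.9 for hy5-2 libraries 2 to 4, and library 1 of Col-0 stood at −32.8, against −12.4 to 2.33 for Col-0 libraries 2 to 4. Counts without both first libraries are therefore given beside each list whose count of calls they change. Summed FPKM of 3 markers of dividing cells was 17.64, 5.03, 4.42 and 3.90 in hy5-2 HL libraries 1 to 4 and 17.58, 12.1, 5.87 and 4.58 in Col-0 HL libraries 1 to 4. No marker of mesophyll, guard cells, epidermis, phloem, roots, dividing cells or senescence was called among 29 tested. Their directions were not even, however. All 6 mesophyll markers were above 0 (0.19 to 0.38). Below 0 were all 6 phloem markers (−0.23 to −0.033), 4 of them after rescaling, and all 3 dividing-cell markers (−0.41 to −0.25). Of guard cell markers 5 of 6 were below 0, and of epidermis markers 4 of 5 above. A difference in cell make-up was not tested. The flower and seed markers stood below the filter on low values, with a sum of 0.252 to 0.905 FPKM in hy5-2 HL and 0.348 to 0.548 FPKM in Col-0 HL, and 3 of 7 were at 0 in all 8 libraries.

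**Figure D1:**
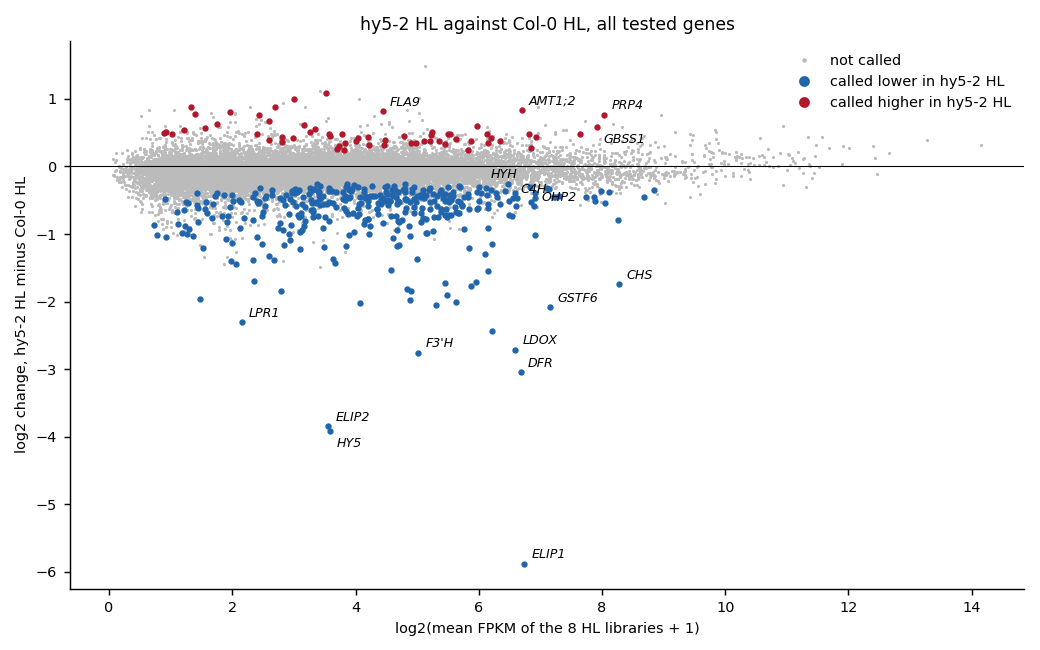
Each point is 1 of 17788 tested genes, placed by log2 of its mean FPKM over the 8 HL libraries plus 1 (x axis) and by its log2 change, hy5-2 HL minus Col-0 HL (y axis). Red marks the 62 genes called higher and blue the 366 called lower, and the largest falls are ELIP1 at −5.88, HY5 at −3.91 and ELIP2 at −3.84.

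The largest difference lay in the early light-induced proteins, chlorophyll-binding proteins of the thylakoid that accumulate under excess light. ELIP1 (AT3G22840, chromosome 3, 8084405 to 8085669) stood at 2.37, 2.87, 2.08 and 2.59 FPKM in hy5-2 HL, against 245, 254, 141 and 193 FPKM in Col-0 HL. The groups did not overlap and the hy5-2 mean was 84.1 times lower (log2 change −5.88, SE 0.46, limma adjusted p 7.45e-08). ELIP2 (AT4G14690, chromosome 4, 8418242 to 8419325) stood at 0.691, 0.236, 0.207 and 0.574 FPKM in hy5-2 HL, against 27.2, 31.8, 13.7 and 11.4 FPKM in Col-0 HL, a mean 49.3 times lower (log2 change −3.84, SE 0.69, limma adjusted p 0.00200). Under growth light these genes stood far closer. ELIP1 had a mean of 19.8 FPKM in hy5-2 and 32.1 FPKM in Col-0 and a change of −0.70, which did not pass (limma adjusted p 0.491). The interaction of genotype and light was −5.18 for ELIP1 (limma adjusted p 0.000240) and −3.48 for ELIP2, where it did not pass (limma adjusted p 0.105). In hy5-2 the level of ELIP1 in HL was below its own LL level (log2 change −2.53, limma adjusted p 0.000140), and in Col-0 it was above (2.65, limma adjusted p 5.45e-05).

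Of the 9 light-harvesting-like genes tested, 4 fell and none rose in hy5-2 HL, a median log2 change of −0.30 beside −0.083 over all tested genes. OHP2, a small thylakoid protein needed for photosystem II assembly, stood at 84.9, 92.2, 100 and 102 FPKM in hy5-2 HL and 139, 152, 146 and 133 FPKM in Col-0 HL (log2 change −0.58, limma adjusted p 0.000172), and it shares 334 bases with AT1G06717. SEP2, a stress-enhanced thylakoid protein, stood at 56.4, 57.4, 79.0 and 68.1 FPKM in hy5-2 HL and 87.6, 91.7, 102 and 102 FPKM in Col-0 HL (log2 change −0.56, limma adjusted p 0.00299). After rescaling SEP2 missed the threshold (limma adjusted p 0.0939), which leaves 3 of 9 lower, and leaving out any library or both first libraries kept the count at 4. PSBS, which sets the rapidly reversible dissipation of excess light, had a change of −0.30 that did not pass (limma adjusted p 0.237). OHP1, LIL3:1, LIL3:2 and SEP1 had changes of −0.26 to −0.070 and did not pass either.

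**Figure D2:**
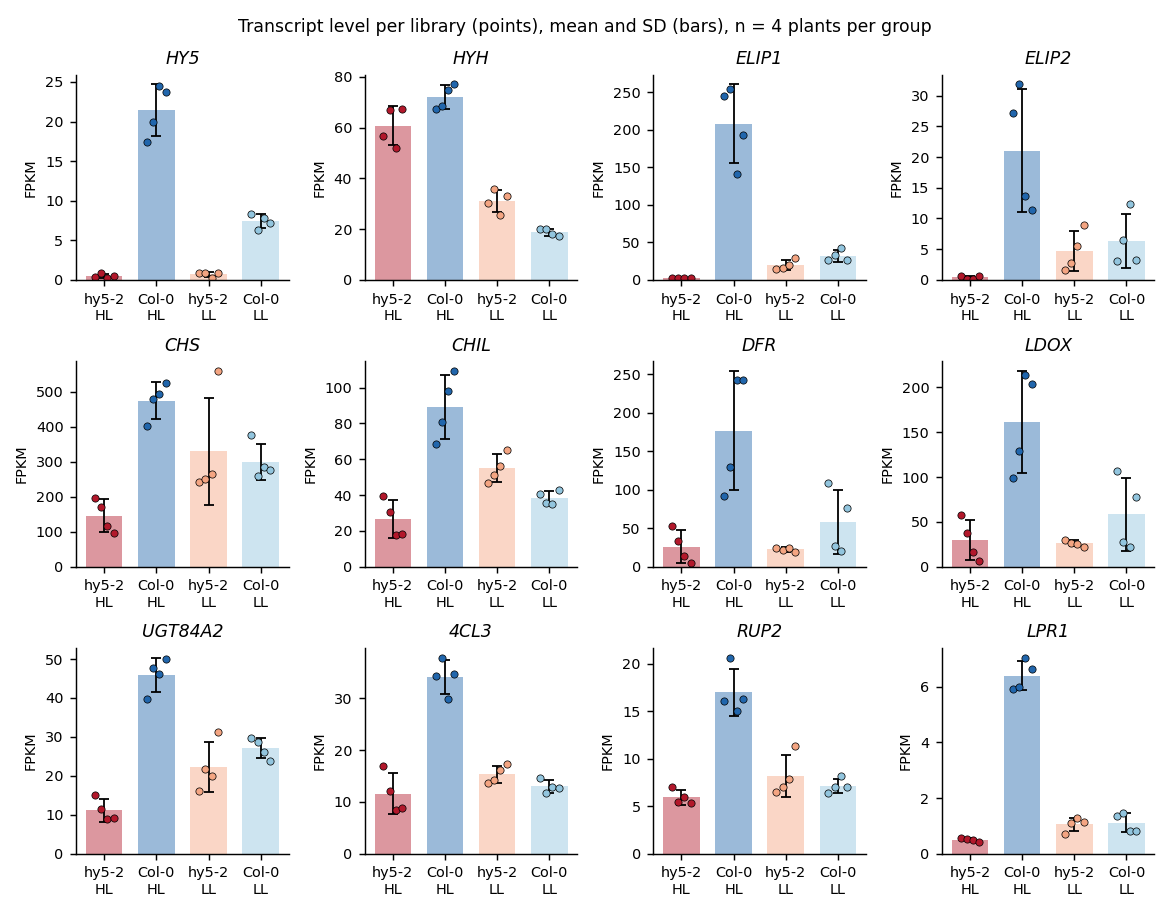
Points are FPKM of single libraries and bars are means with SD (n = 4 plants) for 12 genes in hy5-2 HL, Col-0 HL, hy5-2 LL and Col-0 LL. ELIP1 stands at 2.08 to 2.87 FPKM in hy5-2 HL and 141 to 254 FPKM in Col-0 HL, and HYH at 51.9 to 67.4 FPKM in hy5-2 HL and 67.4 to 77.1 FPKM in Col-0 HL.

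Early flavonoid and flavonol enzymes, which turn coumaroyl-CoA into flavanones, dihydroflavonols and their glycosides, were lower in hy5-2 HL: 6 of 8 tested genes fell and none rose, with a median log2 change of −1.54. CHS, chalcone synthase, the entry enzyme (AT5G13930, chromosome 5, 4488476 to 4490264), stood at 197, 171, 116 and 97.6 FPKM in hy5-2 HL and 401, 478, 493 and 525 FPKM in Col-0 HL. Its groups lay well apart (log2 change −1.75, SE 0.23, limma adjusted p 8.26e-05). CHIL, a chalcone isomerase-like protein that raises the output of the entry enzyme, stood at 39.7, 30.6, 17.7 and 18.1 FPKM in hy5-2 HL and 68.7, 80.5, 98.2 and 109 FPKM in Col-0 HL (log2 change −1.77, SE 0.22, limma adjusted p 2.47e-05). CHI, chalcone isomerase, stood at 27.4, 16.9, 13.3 and 11.9 FPKM in hy5-2 HL and 39.1, 47.2, 44.0 and 46.4 FPKM in Col-0 HL (log2 change −1.36, limma adjusted p 9.40e-05). In both genes hy5-2 library 1 was the highest of its group and still below every Col-0 library. F3'H, the flavonoid 3'-hydroxylase (AT5G07990, chromosome 5, 2560328 to 2563137), stood at 17.78, 10.4, 3.33 and 2.84 FPKM in hy5-2 HL and 30.6, 44.2, 72.0 and 70.0 FPKM in Col-0 HL, the largest change of the list (−2.76, SE 0.42, limma adjusted p 0.000419).

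In FLS1, flavonol synthase, Col-0 library 1 was the highest of its group. The gene stood at 22.2, 19.2, 15.6 and 18.9 FPKM in hy5-2 HL and 89.2, 74.3, 45.1 and 57.8 FPKM in Col-0 HL. Its change of −1.72 (SE 0.42, limma adjusted p 0.0285) was called in 2 of the 8 fits that left out an HL library, those without hy5-2 library 1 and without Col-0 library 3, and it was not called after rescaling (limma adjusted p 0.0599) or without both first libraries (limma adjusted p 0.130). UGT78D2, the flavonoid 3-O-glucosyltransferase shared by flavonols and anthocyanins, had medians of 45.3 FPKM in hy5-2 HL and 104 FPKM in Col-0 HL (log2 change −1.15, limma adjusted p 0.00117). UGT78D1 and RHM1, which attach and supply rhamnose, each had a change of −0.17 that did not pass. The list count was 5 of 8 after rescaling, 5 to 6 when any HL library was left out and 5 without both first libraries. Of 11 listed genes, F3H, UGT78D3 and UGT89C1 were not tested. F3H did not exceed 0.0761 FPKM in any library and shares 1588 of its 1681 bases with AT3G51238, which was at 0. UGT89C1, at 0, shares 1580 bases with AT1G06002.

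Late anthocyanin enzymes, which reduce, oxidise, glycosylate and acylate the pigment and carry it to the vacuole, had the lowest median of the 21 pathway lists: 8 of 10 fell, none rose, and the median log2 change was −1.93. DFR, dihydroflavonol reductase, the first committed step (AT5G42800, chromosome 5, 17164093 to 17166032), stood at 52.8, 34.1, 13.7 and 4.62 FPKM in hy5-2 HL and 92.1, 130, 242 and 242 FPKM in Col-0 HL. The plants of each group were widely spread, and the lowest Col-0 library was still above the highest hy5-2 library (log2 change −3.04, SE 0.53, limma adjusted p 0.00153). LDOX, the anthocyanidin synthase, stood at 57.6, 38.1, 16.9 and 6.54 FPKM in hy5-2 HL and 98.5, 130, 214 and 204 FPKM in Col-0 HL (log2 change −2.71, limma adjusted p 0.00202). TT19, a glutathione S-transferase that escorts anthocyanin to the vacuole, stood at 45.01, 31.6, 17.9 and 7.02 FPKM in hy5-2 HL and 80.7, 99.9, 155 and 149 FPKM in Col-0 HL (log2 change −2.43, limma adjusted p 0.000569). In both, the hy5-2 libraries stood in the same order as for DFR.

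Among the decorating enzymes, UGT79B1, the xylosyltransferase, stood at 27.2, 20.6, 10.9 and 4.77 FPKM in hy5-2 HL and 36.4, 51.5, 81.7 and 74.4 FPKM in Col-0 HL (log2 change −2.05, limma adjusted p 0.00914). The malonyltransferase 5MAT stood at 14.3, 8.15, 3.01 and 1.77 FPKM in hy5-2 HL and 18.1, 22.7, 29.8 and 28.9 FPKM in Col-0 HL (log2 change −2.02, limma adjusted p 0.00715). In each, hy5-2 library 1 was the highest of its group, Col-0 library 1 was the lowest of its group, and the groups did not overlap. UGT75C1, the 5-O-glucosyltransferase, changed by −1.85, and the coumaroyltransferases 3AT1 and 3AT2 by −1.16 and −1.03 (limma adjusted p 0.00419, 0.0136 and 0.0112). The transcripts of 3AT1 and 3AT2 are 96.7% identical over 1244 bases, so their counts can be exchanged. SCPL10 and BGLU10, which build and attach further acyl and sugar groups, had changes of −0.42 and −0.49 that did not pass (limma adjusted p 0.254 and 0.0658). The list count stayed at 8 after rescaling and without both first libraries, and fell to 6 without Col-0 HL library 4.

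Replicates sat in much the same order from one flavonoid gene to the next. Of the called members, hy5-2 HL library 1 was the highest of its group in 6 of 6 early and 6 of 8 late genes, and hy5-2 HL library 4 the lowest in 4 of 6 and 7 of 8. Col-0 HL library 1 was the lowest of its group in 5 of 6 early and 8 of 8 late genes. Summed over the late list, FPKM was 340, 274, 185 and 141 in hy5-2 HL libraries 1 to 4 and 507, 643, 997 and 978 in Col-0 HL libraries 1 to 4. Over the early list the sums were 546, 452, 355 and 320 in hy5-2 HL and 902, 1008, 1015 and 1091 in Col-0 HL. The dividing-cell markers given above, and the epidermis and trichome markers, summed to 282, 173, 211 and 159 FPKM in hy5-2 HL and 246, 232, 179 and 165 FPKM in Col-0 HL, also differed between first and later libraries; their part in the flavonoid values was not tested.

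**Figure D3:**
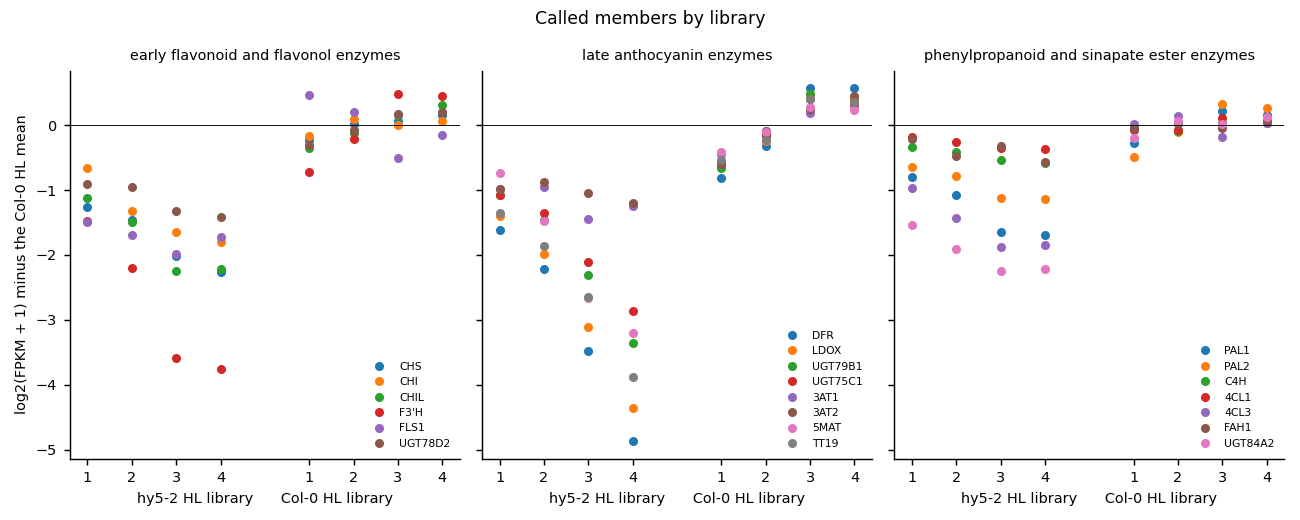
Each point is log2(FPKM + 1) of a called gene in 1 HL library minus its mean in Col-0 HL (y axis), for hy5-2 libraries 1 to 4 and Col-0 libraries 1 to 4 (x axis), with 6 early flavonoid, 8 late anthocyanin and 7 phenylpropanoid genes in 3 panels. Late genes spread most, and all hy5-2 points of DFR lie below all its Col-0 points.

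Of 16 tested regulators of the pathway, 2 fell (12.5%, beside 2.06% of all tested genes), none rose, and the median log2 change was −0.19. TT8, a bHLH partner of anthocyanin MYB proteins, stood at 2.65, 2.42, 0.710 and 0.322 FPKM in hy5-2 HL and 4.43, 5.26, 8.58 and 8.56 FPKM in Col-0 HL (log2 change −1.70, SE 0.31, limma adjusted p 0.00208), in the library order of the late enzymes. MYB4, a repressor of phenylpropanoid genes, stood at 8.67, 7.01, 5.97 and 6.49 FPKM in hy5-2 HL and 10.05, 11.7, 11.0 and 9.73 FPKM in Col-0 HL (log2 change −0.54, limma adjusted p 0.00265). MYB75, the main anthocyanin MYB of leaves, stood at 27.6 to 39.9 FPKM in hy5-2 HL and 45.2 to 69.4 FPKM in Col-0 HL and missed the threshold (log2 change −0.90, limma adjusted p 0.0673). MYB111, a flavonol MYB, had a change of −0.75 (limma adjusted p 0.0963). Its relatives MYB11 and MYB12 stood below the filter and were not tested, at 0.0181 to 0.195 and 0.0784 to 0.256 FPKM in hy5-2 HL and 0.138 to 0.697 and 0.466 to 0.823 FPKM in Col-0 HL. TTG1, GL3 and EGL3, the other members of the MYB-bHLH-WD40 complex, had changes of 0.041, −0.072 and −0.10 that did not pass.

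General phenylpropanoid and sinapate ester enzymes feed the flavonoid pathway and make the sinapate esters that screen ultraviolet light. Of 19 tested, 7 fell, none rose, and the median log2 change was −0.29. UGT84A2, the sinapate glucosyltransferase (AT3G21560, chromosome 3, 7595680 to 7597607), stood at 15.1, 11.4, 8.87 and 9.07 FPKM in hy5-2 HL and 39.7, 47.6, 46.2 and 49.9 FPKM in Col-0 HL. Its groups were far apart and tight (log2 change −1.98, SE 0.18, limma adjusted p 5.62e-07). 4CL3, the coumarate-CoA ligase linked to flavonoids, stood at 16.9, 12.1, 8.53 and 8.81 FPKM in hy5-2 HL and 34.4, 37.8, 29.8 and 34.8 FPKM in Col-0 HL (log2 change −1.53, limma adjusted p 1.09e-05). PAL1, phenylalanine ammonia-lyase, the first enzyme of the route, stood at 54.2, 44.3, 29.5 and 28.7 FPKM in hy5-2 HL and 78.3, 88.7, 110 and 105 FPKM in Col-0 HL (log2 change −1.30, limma adjusted p 0.000639).

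The other phenylpropanoid falls were smaller and less firm. PAL2, C4H, FAH1 and 4CL1 had changes of −0.92, −0.47, −0.40 and −0.29 (limma adjusted p 0.0108, 0.0394, 0.0234 and 0.0378), and after rescaling the list held 3 falls, with PAL2 at a limma adjusted p of 0.0562 and C4H at 0.207. Without Col-0 HL library 4 the count was 3, without Col-0 HL libraries 2 or 3 or hy5-2 HL libraries 2 or 4 it was 4, and without both first libraries it was 6. Of the lignin branch, HCT, C3H1 and CCoAOMT1 had changes of −0.061, −0.10 and −0.29 and did not pass. PAL3 and PAL4, expressed at 0.437 to 2.51 FPKM in the 8 libraries, had changes of −0.035 and 0.0081.

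**Figure D4:**
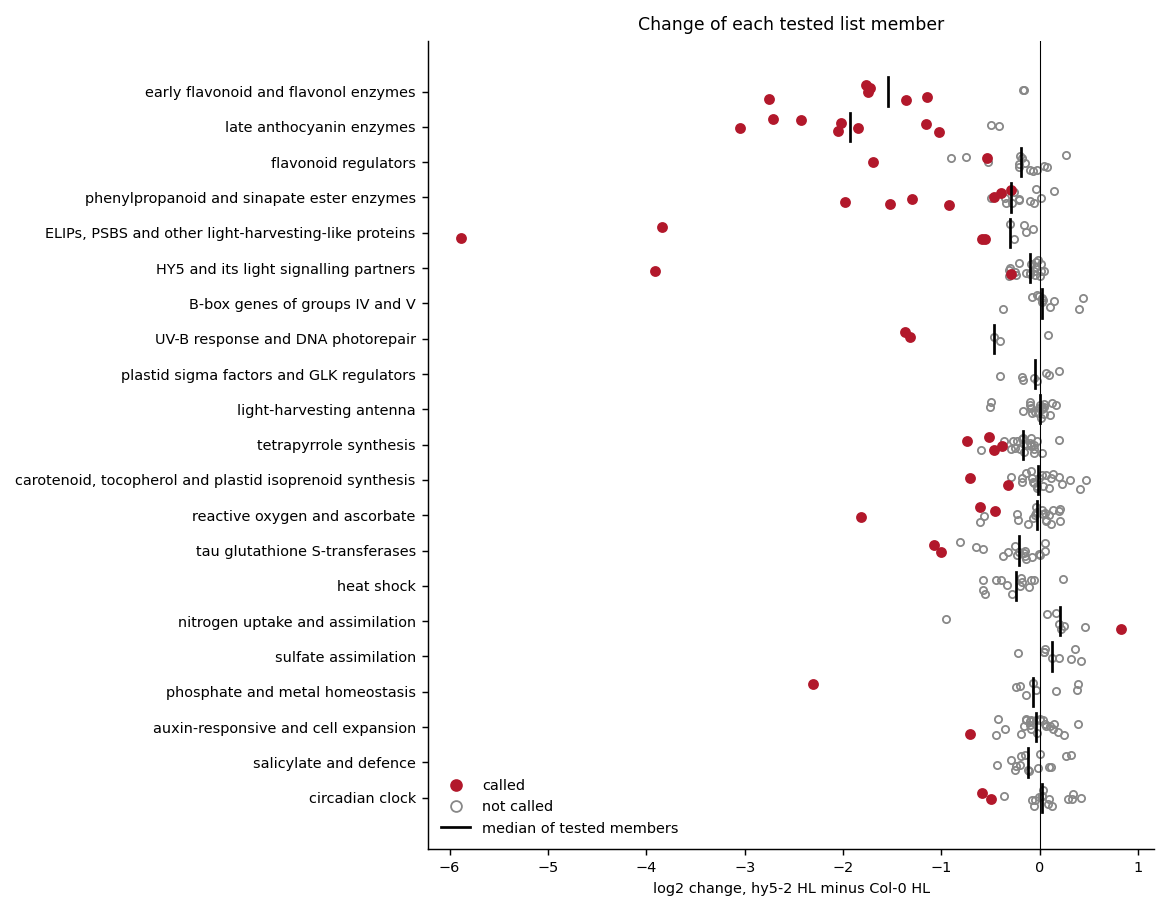
Each point is 1 tested gene of a pathway list (rows), placed by its log2 change, hy5-2 HL minus Col-0 HL (x axis) and filled points were called and bars are list medians. The medians of the early flavonoid and late anthocyanin rows stand at −1.54 and −1.93, and the B-box, antenna and heat shock rows hold no called gene.

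HY5's partners in light signalling were mostly near their Col-0 levels. Of 21 tested genes of this list 2 fell (9.52%, beside 2.06% of all tested genes), the mutated HY5 itself and COP1. None rose, and the median log2 change was −0.099. COP1 stood at 16.9, 15.8, 16.2 and 16.4 FPKM in hy5-2 HL and 21.0, 18.9, 20.9 and 20.3 FPKM in Col-0 HL (log2 change −0.29, limma adjusted p 0.0202). That call was lost after rescaling (limma adjusted p 0.219), without both first libraries, and in 5 of 8 fits that left out an HL library, namely Col-0 1, 3 or 4 or hy5-2 2 or 3, and the list count was then 1. HYH (AT3G17609, chromosome 3, 6023844 to 6024710) stood at 56.8, 66.9, 51.9 and 67.4 FPKM in hy5-2 HL and 67.4, 68.5, 75.1 and 77.1 FPKM in Col-0 HL, and its change of −0.25 did not pass (limma adjusted p 0.254). In LL its means were 31.2 FPKM in hy5-2 and 18.8 FPKM in Col-0 (log2 change 0.69, limma adjusted p 0.00229), and the interaction was −0.94 (limma adjusted p 0.00200). The photoreceptors PHYA, PHYB, CRY1 and CRY2 had changes of −0.30 to −0.039, none past the threshold. HFR1 and FHL stood below the filter.

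None of the 11 tested B-box genes of groups IV and V was called, with a median log2 change of 0.025. BBX30, with the largest change of the list, stood at 18.0, 23.59, 21.7 and 17.1 FPKM in hy5-2 HL and 10.2, 14.6, 20.7 and 13.9 FPKM in Col-0 HL, and its groups overlapped (log2 change 0.44, limma adjusted p 0.405). BBX32 stood at 12.4 to 16.1 FPKM in hy5-2 HL and 13.4 to 16.6 FPKM in Col-0 HL. BBX20 and BBX23 were below the filter.

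In the small list of the ultraviolet-B response and DNA photorepair, 2 of 5 tested genes fell and none rose, in every fit that left out an HL library save the one without hy5-2 HL library 1, where 3 fell. RUP2, which switches off the ultraviolet-B receptor UVR8, stood at 7.03, 5.41, 6.00 and 5.33 FPKM in hy5-2 HL and 16.1, 20.6, 15.0 and 16.3 FPKM in Col-0 HL (log2 change −1.37, SE 0.18, limma adjusted p 5.22e-05). CRY3, a photolyase-like cryptochrome of plastids and mitochondria, stood at 2.64, 2.97, 2.101 and 2.14 FPKM in hy5-2 HL and 7.27, 8.78, 7.31 and 7.25 FPKM in Col-0 HL (log2 change −1.32, limma adjusted p 3.14e-06). Both genes had tight, separate groups. UVR8 itself had a change of 0.087, and RUP1, the paralog of RUP2, of −0.46 (limma adjusted p 0.591 and 0.0767).

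None of the 8 sigma factors and GLK regulators and none of the 20 tested antenna genes was called, with median log2 changes of −0.045 and −0.00023, which became 0.054 and 0.10 after rescaling. SIG5, the light- and stress-induced sigma factor, stood at 36.3, 40.8, 39.2 and 44.9 FPKM in hy5-2 HL and 46.1, 52.1, 60.5 and 55.9 FPKM in Col-0 HL. That change of −0.40 did not pass, whereas in LL the gene was higher by 0.76 and the interaction was −1.16 (limma adjusted p 0.215, 0.0266 and 0.0100). Of the antenna genes LHCB1.4 had the largest change, −0.50 (limma adjusted p 0.262), and it is 91.6% identical to LHCB1.5, listed at 0, over 806 bases. LHCB1.5 shares all of its 1045 bases with AT2G08665, which was at 0.

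In tetrapyrrole synthesis 4 of 26 tested genes fell (15.4%, beside 2.06% of all tested genes) and none rose, with a median log2 change of −0.17. HY2, which makes the phytochrome chromophore, stood at 6.20, 5.88, 5.02 and 4.92 FPKM in hy5-2 HL and 10.9, 9.78, 9.47 and 9.15 FPKM in Col-0 HL (log2 change −0.74, limma adjusted p 0.00247). CHLI2, a subunit of magnesium chelatase, stood at 32.0, 32.5, 29.2 and 29.2 FPKM in hy5-2 HL and 41.2, 44.8, 48.0 and 43.6 FPKM in Col-0 HL (log2 change −0.52, limma adjusted p 0.00697). HEME2 and GSA2, of the common part of the route, had changes of −0.46 and −0.39 (limma adjusted p 0.0437 and 0.0335). Those 2 calls were lost after rescaling (0.0841 and 0.178 by limma), without both first libraries, and in each fit that left out an HL library other than hy5-2 library 1, so that 2 falls were left. GUN4 was not tested, at no more than 0.361 FPKM, and shares 946 bases with AT3G59410.

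Among 24 carotenoid, tocopherol and plastid isoprenoid genes 2 fell (8.33%, beside 2.06% of all tested genes) and none rose. So small a count is not read as a result about the list. The median was −0.019, which became 0.080 after rescaling. LUT5, the carotene hydroxylase of the lutein branch, stood at 63.1, 70.2, 64.4 and 70.0 FPKM in hy5-2 HL and 110, 108, 108 and 114 FPKM in Col-0 HL, with tight groups (log2 change −0.71, SE 0.10, limma adjusted p 0.000152). CCD1, a carotenoid cleavage enzyme, changed by −0.32 (limma adjusted p 0.0202) and was not called after rescaling (0.338), without both first libraries, or without Col-0 HL libraries 3 or 4 or hy5-2 HL libraries 1 or 2, which left 1 fall. GGPS11 was not tested and shares 1529 bases with AT4G36808.

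Of 24 genes of reactive oxygen removal and ascorbate, 3 fell (12.5%, beside 2.06% of all tested genes) and none rose. The median was −0.033, which became 0.067 after rescaling. GPX7, a plastid glutathione peroxidase (AT4G31870, chromosome 4, 15410078 to 15412486), stood at 13.3, 13.6, 8.93 and 11.0 FPKM in hy5-2 HL and 38.2, 41.0, 48.8 and 45.6 FPKM in Col-0 HL (log2 change −1.82, SE 0.18, limma adjusted p 9.51e-07). The gene shares 751 bases with AT4G31875, and the use of strand in counting is not given in the sources used here. FSD3 and sAPX, the superoxide dismutase and ascorbate peroxidase of plastids, had changes of −0.61 and −0.46 (limma adjusted p 0.0430 and 0.0255), and neither call held after rescaling (0.0760 and 0.136) or without both first libraries. The list held 1 fall in every fit that left out an HL library except that without Col-0 HL library 3, which held 2. Of 19 tau glutathione S-transferases 2 fell (10.5%, beside 2.06% of all tested genes). These were GSTU26 and GSTU28, with log2 changes of −1.07 and −1.01 (limma adjusted p 0.00208 and 0.00598). GSTU26, at 2.38, 1.31, 1.44 and 0.630 FPKM in hy5-2 HL and 4.91, 3.85, 3.80 and 3.41 FPKM in Col-0 HL, was also lower in LL, by 1.32. GSTU28 was not called without both first libraries, which left 1 fall.

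LPR1, a multicopper oxidase known from the root response to phosphate shortage (AT1G23010, chromosome 1, 8147118 to 8149891), was set by narrow groups. It stood at 0.548, 0.525, 0.480 and 0.433 FPKM in hy5-2 HL and 5.91, 6.01, 7.04 and 6.66 FPKM in Col-0 HL, a mean 12.9 times lower (log2 change −2.30, SE 0.15, limma adjusted p 3.52e-09). It was the only gene of its list that passed, among 9 tested, and its paralog LPR2 had a change of 0.16.

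Nutrient lists otherwise held few calls. AMT1;2, an ammonium transporter, stood at 105, 132, 143 and 148 FPKM in hy5-2 HL and 61.6, 77.4, 74.1 and 81.0 FPKM in Col-0 HL, and was the only member of the 21 pathway lists to rise (log2 change 0.83, SE 0.19, limma adjusted p 0.0168). That call was lost without Col-0 HL library 1, hy5-2 HL library 3 or hy5-2 HL library 4, and 0 members of the list then rose. The median over 8 nitrogen genes was 0.21, with NIR1 at 0.46 and ASN1 at −0.96, neither past the threshold. Of 9 sulfate assimilation genes none was called, with a median of 0.12 and the largest change, 0.42, in APR2 (limma adjusted p 0.0929), which shares 782 bases with AT1G08477. AMT1;1, SULTR1;1, NRT2.1 and PHT1;1 were below the filter, as were MYB114, UVR3, APX2, XTH15, FKF1 and the tau transferases GSTU2, GSTU11, GSTU12, GSTU14, GSTU15, GSTU21, GSTU22 and GSTU25 among others of that family. AMT1;1, at 0, shares 1709 of its 2106 bases with AT4G13505, and GSTU2 shares 849 of its 1124 bases with AT2G29485. How overlapping genes were counted is not given in the sources used here, so such low values need not mean absent transcripts.

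In the circadian clock 2 of 17 tested genes fell (11.8%, beside 2.06% of all tested genes) and none rose. Without hy5-2 HL library 1, however, 1 rise was called, that of the morning gene CCA1, named after its values were seen. The falls were ELF3, of the evening complex, at 5.48, 5.92, 4.73 and 5.98 FPKM in hy5-2 HL and 9.36, 8.09, 7.98 and 9.85 FPKM in Col-0 HL, and TOC1, an evening repressor, at 5.68, 4.17, 5.31 and 4.47 FPKM in hy5-2 HL and 7.41, 7.17, 7.28 and 7.35 FPKM in Col-0 HL. Their changes were −0.59 and −0.50 (limma adjusted p 0.0104 and 0.00636), and without Col-0 HL library 4, hy5-2 HL library 3 or both first libraries ELF3 was lost and 1 fall was left. Among 25 auxin and expansion genes 1 fell (4%, beside 2.06% of all tested genes), a count not read as a result about the list. That gene, IAA2, an auxin-induced repressor, stood at 8.65, 11.3, 13.9 and 13.1 FPKM in hy5-2 HL and 19.8, 19.8, 20.1 and 18.4 FPKM in Col-0 HL (log2 change −0.71, limma adjusted p 0.00226). None of 14 heat shock genes and none of 15 salicylate and defence genes was called, with medians of −0.24 and −0.12. HSP17.8 and ALD1 had the largest changes of these lists, −0.58 and −0.44, with overlapping groups.

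Some of the largest falls lay outside every list. GSTF6, a phi glutathione S-transferase, stood at 88.7, 51.5, 54.8 and 22.8 FPKM in hy5-2 HL and 122, 164, 307 and 322 FPKM in Col-0 HL (log2 change −2.08, limma adjusted p 0.00212), in an order of libraries like that of the anthocyanin genes, and its transcript is 92.6% identical to AT1G02920 over 892 bases. AT2G36885 stood at 19.1, 19.2, 15.69 and 21.0 FPKM in hy5-2 HL and 83.5, 85.7, 65.7 and 78.1 FPKM in Col-0 HL (log2 change −2.003, limma adjusted p 5.62e-07). AT5G17780 stood at 0.145, 0.0521, 0.104 and 0.242 FPKM in hy5-2 HL and 3.22, 3.38, 3.31 and 3.81 FPKM in Col-0 HL (log2 change −1.96, limma adjusted p 7.01e-07). AT1G57770 stood at 20.4, 19.5, 13.5 and 19.3 FPKM in hy5-2 HL and 71.5, 71.0, 67.0 and 69.5 FPKM in Col-0 HL (log2 change −1.90, limma adjusted p 1.64e-06). The rule that named these 4 genes required groups without overlap, so their separation is no added result. AT5G17780 rested on 3 to 15 fragments per hy5-2 HL library, and library 3 of hy5-2 HL was low for AT1G57770.

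A further 7 falls and 3 rises are named here although they were picked after their values had been seen. SPPA, a light-induced thylakoid protease, stood at 26.0, 29.9, 25.8 and 29.7 FPKM in hy5-2 HL and 98.2, 98.9, 85.2 and 91.98 FPKM in Col-0 HL (log2 change −1.71, limma adjusted p 2.20e-07). PDX2, of vitamin B6 synthesis, stood at 33.5, 36.4, 33.2 and 36.7 FPKM in hy5-2 HL and 96.6, 107, 109 and 105 FPKM in Col-0 HL (log2 change −1.55, limma adjusted p 3.46e-05). Both were called in every fit that left out an HL library. UNE10, a bHLH protein of the PIF family, and BEE1, a brassinosteroid-induced bHLH protein, changed by −1.18 and −1.39. WRKY44, which acts in trichomes and seed coats, changed by −1.44 and followed the anthocyanin order, with 3.20, 1.09, 1.04 and 0.244 FPKM in hy5-2 HL and 3.72, 5.05, 5.13 and 5.86 FPKM in Col-0 HL. COX15, of haem A synthesis, and AT1G06690 changed by −1.19 and −1.20 (limma adjusted p 5.62e-07 and 0.000213).

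Rises were fewer and smaller, with 59 of 62 called rises showing no overlap between the groups, beside 374 of all tested genes (2.1%) with every hy5-2 library above every Col-0 library. FLA9, a fasciclin-like cell wall protein, stood at 23.4, 25.7, 30.5 and 27.2 FPKM in hy5-2 HL and 14.2, 15.3, 13.9 and 15.3 FPKM in Col-0 HL (log2 change 0.81, limma adjusted p 0.00496). PRP4, a proline-rich cell wall protein, stood at 312, 295, 345 and 353 FPKM in hy5-2 HL and 204, 274, 155 and 153 FPKM in Col-0 HL (log2 change 0.77, limma adjusted p 0.0125), was not called without Col-0 HL libraries 3 or 4, and shares 513 bases with AT4G38775. The largest rise without overlap, AT3G54830, stood at 8.63, 11.2, 8.81 and 9.94 FPKM in hy5-2 HL and 3.55, 4.74, 4.40 and 4.63 FPKM in Col-0 HL (log2 change 1.00, limma adjusted p 0.00850). AT2G44380 and AT5G20670 changed by 0.78 and 0.76, and AT5G20670 was not called without Col-0 HL libraries 1 or 2 or hy5-2 HL library 2. PGM and HIPP24, with changes of 0.89 and 0.81, were called in 1 and 2 of 8 fits that left out an HL library. Carbohydrate genes among the rises chosen after their values were seen were GBSS1, granule-bound starch synthase, at 270, 309, 277 and 296 FPKM in hy5-2 HL and 175, 186, 202 and 205 FPKM in Col-0 HL (log2 change 0.58, limma adjusted p 0.0206, 0.0562 after rescaling, and called in 4 of 8 fits that left out an HL library), UGP, UDP-glucose pyrophosphorylase (0.49), and CSLG3, a cellulose synthase-like protein (0.48).

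To ask how far these differences belonged to HL, the same genes were read in LL and in the interaction of genotype with light. In LL 66 genes were called (0.371%), 35 lower (0.197%) and 31 higher (0.174%), and 18 genes were called in both lights, 17 of them in the same direction, which was 4.21% of the HL calls and 27.3% of the LL calls. The 366 genes lower in HL had a median LL change of −0.049, beside −0.031 over all tested genes, and 62.0% of them had a negative LL change, beside 56.9% of all tested genes. For the 57 falls at 2-fold or more the median LL change was −0.33, with 45 of 57 negative and 5 called. Of the 62 rises, 49 were positive in LL, with a median change of 0.16 in LL and 0.47 in HL. The interaction itself was called for 116 genes (0.652%), 111 lower (0.624%) and 5 higher (0.0281%), and after rescaling for 45.

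Early flavonoid genes had a median of −1.54 in HL and 0.099 in LL, and the interaction was called lower for 4 of 8. CHIL stood at a mean of 55.0 FPKM in hy5-2 LL and 38.5 FPKM in Col-0 LL, and its interaction was −2.27 (limma adjusted p 0.000494). CHS, CHI and UGT78D2 had interactions past the threshold as well, at −1.81 for CHS and −1.28 for CHI. In the phenylpropanoid list the interaction was called lower for 5 of 19, UGT84A2 (−1.67), 4CL3 (−1.75), PAL1 (−1.58), PAL2 (−1.23) and C4H (−0.87). Library 4 of hy5-2 LL was the highest of its group for each of these 5 genes and for CHS. For CHS it stood at 558 FPKM, against 243 to 263 FPKM in hy5-2 LL libraries 1 to 3. For C4H it stood at 99.0 FPKM, against 64.7 to 72.3 FPKM. The part of this library in the interactions of single genes is not given here. Late anthocyanin genes had a median of −1.93 in HL and −0.58 in LL, all 10 were negative in both lights, and none had a called interaction or a called LL change. Their median interaction was −1.22, beside −1.46 for the early flavonoid and −0.44 for the phenylpropanoid list, and no difference between lists was tested. DFR in LL averaged 22.5 FPKM in hy5-2 and 58.4 FPKM in Col-0, with an interaction of −2.01 (SE 0.75, limma adjusted p 0.256). Its Col-0 LL libraries 1 to 4 were uneven, at 109, 27.5, 21.0 and 75.8 FPKM, against 18.7 to 24.7 FPKM in hy5-2 LL. LDOX, TT19, UGT79B1 and 5MAT were also highest in Col-0 LL libraries 1 and 4. Summed FPKM of the late list was 155 to 469 in Col-0 LL and 152 to 177 in hy5-2 LL.

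Among other genes with a called interaction, LPR1 (−2.28), GPX7 (−1.75), RUP2 (−1.53), CRY3 (−1.26) and MYB4 (−0.65) had LL changes between −0.070 and 0.15. AT2G36885, AT5G17780, SPPA and COX15 had called interactions of −1.47, −1.37, −1.22 and −0.77 and LL changes of −0.53, −0.60, −0.50 and −0.43, which did not pass. PDX2, UNE10, BEE1 and AT1G06690 had interactions of −1.47, −1.36, −1.23 and −1.05. FLA9 had the reverse pattern, an LL change of −0.17 and an interaction of 0.98 (limma adjusted p 0.0463). GSTU26, AT1G57770, GBSS1 and CSLG3 differed from Col-0 in LL too, by −1.32, −0.98, 0.64 and 0.80, and their interactions of −0.92 to 0.25 did not pass.

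**Figure D5:**
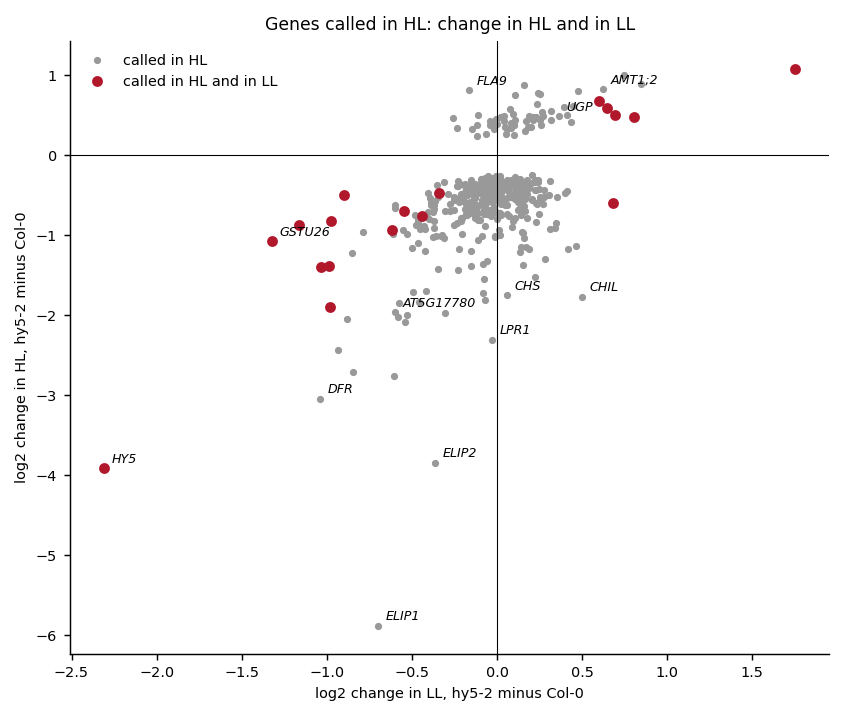
Each point is 1 of the 428 genes called in HL, placed by its log2 change in LL (x axis) and in HL (y axis), hy5-2 minus Col-0 in both; red points were also called in LL. LPR1 and CHS stand near 0 on the x axis, at −0.027 and 0.059, whereas HY5 and GSTU26 are low in both lights.

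As a description of the sequences upstream of the called genes, motifs were counted on both strands in the 250 bases before the start, for 17669 of 17788 tested genes. The ACGT core, which the longer motifs contain, was present in 50.9% of the 57 windows of genes lower by 2-fold or more, 45.5% of 365 windows of called falls, 43.5% of 62 windows of called rises and 44.0% of all windows. CACGTG was present in 11 of 57 windows (19.3%), in 8.77% of called falls, in 4.84% of called rises and in 7.45% of all. GACGTG or its reverse CACGTC was present in 14.0% of the 57, 9.86% of called falls, 4.84% of called rises and 6.15% of all, and TACGTA in 5.26%, 4.38%, 8.06% and 4.66%. Among the flavonoid genes UGT79B1 held CACGTG at 170 and 127 bases, whereas F3'H, FLS1, CHI, LDOX, TT19 and 5MAT held no ACGT in this window.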

How the data were processed

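Poly(A)-selected leaf RNA from 24 individual plants was sequenced. The authors deposited 1 table of FPKM for 34218 genes. Per the submitters' processing notes, HISAT2 2.0.5, HTSeq 0.6.1, DESeq2 1.20.0, DESeq, CASAVA and the build TAIR10 were named, and the use of strand is not given in the sources used here. Of gene IDs, 32548 matched the TAIR10.1 annotation, 99.95% with the same start and end.

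A gene entered the test when 4 or more of the 24 libraries reached 1 FPKM, which 17788 did. The test ran on log2(FPKM + 1) with limma 3.58.1 in R 4.3.3, with a mean-variance trend, 6 groups of 4 libraries and 18 residual degrees of freedom, and Benjamini-Hochberg adjusted p under 0.05 called. A change on this scale understates that of low genes. FPKM steps gave whole fragments, within 0.05, for 98.6% of genes above 0, and a limma-voom fit on these fragments called 417 genes. Intervals of such counts cover counting error only. Within-group pairs differed beyond counting noise (chi-square per degree of freedom 15.5 to 71.4), so each plant counted once. Similar transcripts were found with blastn 2.17.0.

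The members and 29 gene lists were chosen with earlier results of these data known. Named genes were HY5, HYH, up to 5 called members of each pathway list by size of change (the largest change where none was called), and the 15 largest falls and 8 largest rises among called genes without overlap. Other genes are named for list context, and those singled out after seeing values are marked. Alternatives were the pseudocount, filter, rescaling, libraries in the fit, a replicate block and leaving out each library; leaving out both first HL libraries, or an LL library for the HL results, and voom for the LL and interaction counts were added after seeing the data.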

Additional observations from a re-analysis of the deposited data

Results flagged for a closer look

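For 20 of the 59 genes that the naming rule chose, the difference between hy5-2 and Col-0 was not the same in HL and LL by limma's interaction term (adjusted p under 0.05, log2 scale, HL difference minus LL difference). In photoprotection and light signalling these were ELIP1 (−5.1811), HY5 (−1.6049), HYH (−0.94281), SIG5 (−1.1599), RUP2 (−1.5265) and CRY3 (−1.2639). In flavonoid and phenylpropanoid synthesis they were CHIL (−2.2684), CHS (−1.8058), CHI (−1.2811), MYB4 (−0.64875), UGT84A2 (−1.6719), 4CL3 (−1.75), PAL1 (−1.584), PAL2 (−1.2328) and C4H (−0.86502). The others were LPR1 (−2.2775), GPX7 (−1.7457), AT2G36885 (−1.4731), AT5G17780 (−1.3676) and FLA9, the only one of the 20 above 0 (0.98002). Outside that rule the term also passed for UGT78D2 (−1.29) and for 6 of the genes chosen after their values were seen, UNE10 (−1.36), SPPA (−1.22), PDX2 (−1.47), COX15 (−0.77), BEE1 (−1.23) and AT1G06690 (−1.05).

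In 11 of 236 groups of 4 libraries, 1 library stood apart from the other 3 by Dixon's ratio, whose 95% limit chance passes in about 1 of 20 groups. Library 4 of hy5-2 LL was high for CHS (557.95 FPKM) and PAL2 (62.756 FPKM) and low for LUT5 (34.059 FPKM) and ELF3 (3.1714 FPKM). Library 3 of hy5-2 LL was low for HY5 (0.27364 FPKM). In hy5-2 HL, library 3 was low for AT1G57770 (13.515 FPKM) and library 2 high for AT5G20670 (7.4863 FPKM). In Col-0 HL, library 2 was high for CRY3 (8.7774 FPKM). In Col-0 LL, library 2 was high for COP1 (17.972 FPKM) and IAA2 (27.67 FPKM), and library 3 for APR2 (62.157 FPKM).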

How the results depend on the processing

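The 428 calls in HL (62 higher, 366 lower) became 58 (1 and 57) when a 2-fold change was asked for as well, 258 (94 and 164) in rescaled libraries, 648 (560 lower) in a fit of the 8 HL libraries alone and 242 (28 and 214) without both first HL libraries, and a fit of 16 libraries gave 103 higher. With each library left out in turn the total was 240 (without Col-0 HL library 4) to 738 (without hy5-2 LL library 4), the higher calls 24 to 108 and the lower calls 216 to 630. The 66 calls in LL became 9 at 2-fold and 277 in the fit of 16 libraries, and 27 to 91 with a library left out. The 116 interaction calls became 30 at 2-fold, 45 in rescaled libraries and 292 in the fit of 16, and 63 (without Col-0 HL library 4) to 317 (without hy5-2 LL library 4). The cause was not tested. None of the 69 genes named by the rule or picked after their values were seen changed direction. Genes named for list context were not followed through all these settings. Among the 9 tested light-harvesting-like genes, all negative as deposited, 1 was positive in rescaled libraries. Of the 69, HYH, BBX30, SIG5, LHCB1.4, HSP17.8, APR2 and ALD1 had no call to lose. Among the others, 11 lost their call in rescaled libraries and 16 without both first libraries. Samples with the same number were not paired by the labels, and their deviations correlated at 0.47, −0.065, 0.21 and 0.31 in HL and −0.19 to 0.058 in LL; with the replicate block 325 genes were called in HL, 40 of them higher, and C4H, GSA2, FSD3, PGM and HIPP24 lost their call. Depth limits HY5, ELIP2, GSTU28 and AT5G17780 in hy5-2 HL, where 8 to 38, 7 to 31, 7 to 26 and 3 to 15 fragments per library were counted.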
